A study of Mus musculus with 20 samples.

Results

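The enzymes that turn squalene into cholesterol were followed in mouse liver by the 9 genes Sqle, Lss, Cyp51, Tm7sf2, Nsdhl, Hsd17b7, Ebp, Sc5d and Dhcr7. They were chosen by name and are read by 13 of the 55681 probes on the array that are no controls. All 9 passed the filter on dim probes and are among the 20624 genes tested. The study measured liver RNA of 20 male mice, 4 in each of 5 inbred strains, all fed a high fat diet with 45% fat, at week 6. Whether that week counts age or time on the diet is not settled by the labels. The strains are C57BL/6 (B6) and 129P2/OlaHsd (129Ola), which the series calls lean and resistant to diabetes, DBA/2J (DBA) and C3HeB/FeJ (C3H), called lean and susceptible, and NZO/HiBomDife (NZO), called obese and susceptible. No strain carries an engineered allele by the labels, and no group had another diet. Mice are named by strain and the animal number in the labels.

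Cholesterol is made in the endoplasmic reticulum from squalene, which is oxidised and closed into the first sterol, lanosterol; later enzymes then remove methyl groups, move a double bond and reduce what is left. The liver is a main site of this synthesis. When sterols in the membrane fall, the transcription factor SREBP-2 is released and raises transcription of many of these genes together, and when sterols accumulate it is held back by the Insig proteins.

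Every level below is a log2 intensity minus the 75th percentile of its array, so a step of 1 is a doubling. Differences between strains were tested with limma over all genes, and an adjusted p is Benjamini-Hochberg adjusted over the 20624 genes; "higher" and "lower" are used for differences with an adjusted p under 0.05. Levels of different genes are not compared, since each probe has its own brightness.

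The 20 arrays form 2 sets. B6, NZO and DBA (12 arrays) were read with one version of the scanner software over 3 scan days, and C3H and 129Ola (8 arrays) with a later version, each strain on a scan day and slides of its own. C3H and 129Ola therefore cannot be told apart from their scan days and slides, and a level in one set beside one in the other also carries the set. The share of probes detected well above background was 50.4 to 60.1% in the first set and 41.3 to 48.2% in the second. All 7 hepatocyte marker genes on the array were detected in every mouse. All 8 macrophage markers were detected too, and 5 of them were lower in NZO than in B6 (median -0.55), 5 in DBA than in B6 (-0.70) and 6 in C3H than in 129Ola (-0.66), where 1 was higher. Their summed level (linear, relative to the 75th percentile of the array) ranged from 203.5 to 305.1 in B6, 135.4 to 162.2 in NZO, 138.6 to 160.9 in DBA, 93.9 to 170.6 in C3H and 139.6 to 200.7 in 129Ola. Of 4 erythroid markers tested, 1 was higher in NZO than in B6, 2 in DBA than in B6 and 3 in C3H than in 129Ola, with summed levels of 175.3 to 234.5 in B6, 334.1 to 540.5 in NZO, 133.4 to 439.6 in DBA, 429.2 to 636.0 in C3H and 180.6 to 248.3 in 129Ola. Of all genes tested, 18.3% were higher or lower in NZO against B6 and 15.4% in DBA against B6. In C3H against 129Ola it was 37.9% (15.4% higher, 22.6% lower). The erythroid count in NZO against B6 is near that share of all genes. Genes of other lists passed between C3H and 129Ola as well, beside the 37.9% of all genes. Of 7 hepatocyte markers 3 were higher in C3H and 1 lower (median 0.28), of 6 stellate markers 1 and 3, of 6 endothelial markers 2 and 2, and of 4 cholangiocyte markers 0 and 2. The part of these marker lists in the results was not tested. In whole liver, fewer cells of a type and less RNA per cell cannot be told apart.

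C3H had the highest mean level of the 5 strains in all 9 genes, and 129Ola the lowest in 7 of 9. The exceptions were Hsd17b7 and Ebp, which were lowest in B6. For Hsd17b7 this holds for its brightest probe, which stands for the gene. On its other probes 129Ola was lowest (0.30 and -2.56, against 1.25 and -2.43 in B6). On the first of these NZO (2.37) was above C3H (2.16). Between C3H and 129Ola the order was NZO, DBA, B6 for 6 genes (Sqle, Lss, Cyp51, Tm7sf2, Nsdhl and Dhcr7). In all 6 the mice of NZO overlapped those of DBA and the mice of DBA those of B6.

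**Figure D1:**
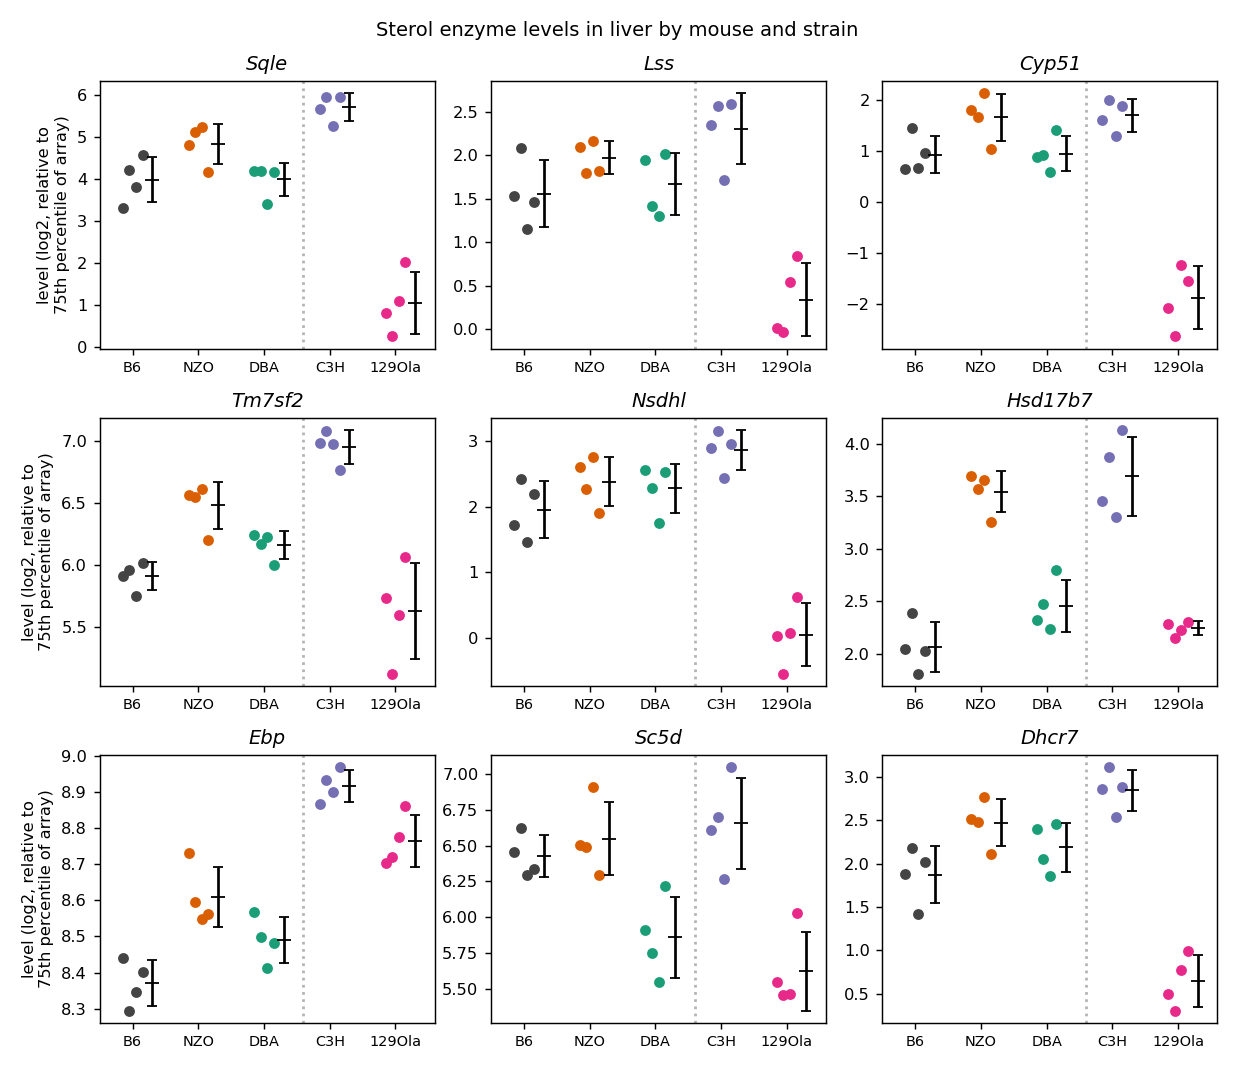
Level of each enzyme gene in each of the 20 mice (points) by strain, as log2 intensity relative to the 75th percentile of the array, with the strain mean and SD (n = 4) as a bar beside the points; the dotted line separates the 2 sets of arrays, and each panel has its own scale. The 4 mice of 129Ola lie below all other mice in Sqle, Lss, Cyp51, Nsdhl and Dhcr7, and Hsd17b7 is high in NZO and C3H.

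For 7 of the 9 genes the difference between C3H and 129Ola was larger than that between NZO and B6. The exceptions were Hsd17b7 (1.45 and 1.48) and Ebp (0.15 and 0.24). By its other probes Hsd17b7 was no exception, with 1.86 against 1.12 and 1.85 against 1.13. The probe that gave 1.85 and 1.13 was well above background on 3 of the 4 arrays of 129Ola. Of the 9 genes, 8 were higher in C3H and 0 lower, where 15.4% of all genes tested were higher and 22.6% lower (37.9% either way). The median log2 difference over the 9 was 1.97, against -0.08 over all genes. The mice of both strains did not overlap in 9 of the 9 genes, as in 40.3% of all genes.

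Sqle encodes squalene epoxidase, which adds oxygen to squalene and is a rate-limiting enzyme of the route. Its level in C3H mice 1, 2, 3 and 5 was 5.67, 5.97, 5.26 and 5.97. In 129Ola mice 4, 5, 7 and 9 it was 0.82, 0.25, 1.09 and 2.04. Every C3H mouse was thus far above every 129Ola mouse, and 129Ola mouse 9 was the highest of its strain. The log2 difference was 4.67 ± 0.35 (SE), or 25.4-fold, with a limma adjusted p of 1.95e-08.

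Lss encodes lanosterol synthase, which closes the ring system. Its levels were 2.35, 2.57, 1.71 and 2.59 in the C3H mice and 0.01, -0.03, 0.54 and 0.84 in the 129Ola mice, in the same order. The strains did not overlap, and C3H mouse 3 was nearest to 129Ola. The difference was 1.97 ± 0.25 (log2, SE), or 3.91-fold, with a limma adjusted p of 1.19e-05.

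Cyp51 encodes the cytochrome P450 that removes a methyl group from lanosterol. Its levels were 1.60, 2.00, 1.29 and 1.88 in C3H and -2.08, -2.64, -1.23 and -1.56 in 129Ola. The probe was well above background on 3 of the 4 arrays of 129Ola, the exception being mouse 5, the lowest. The difference was 3.57 ± 0.29 (log2, SE), or 11.9-fold, with a limma adjusted p of 6.9e-08; with normexp background correction it was 1.98, the smallest of all alternatives and still past the threshold.

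Tm7sf2 encodes a sterol reductase that acts on the product of Cyp51. Its levels were 6.99, 7.08, 6.98 and 6.77 in C3H and 5.74, 5.13, 5.60 and 6.07 in 129Ola. C3H lay close together and 129Ola spread further, without overlap. The difference was 1.32 ± 0.15 (log2, SE; limma adjusted p = 4.05e-06), and the gene's other probe gave 1.46.

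Nsdhl and Hsd17b7 encode a dehydrogenase and a keto reductase that work one after the other in taking methyl groups off the sterol ring. Nsdhl was at 2.90, 3.15, 2.43 and 2.96 in C3H and at 0.03, -0.54, 0.08 and 0.63 in 129Ola, with a difference of 2.81 ± 0.27 (log2, SE) or 7.00-fold (limma adjusted p = 4.92e-07). Its other probe gave 2.67. Hsd17b7 was at 3.45, 3.87, 3.30 and 4.13 in C3H and at 2.29, 2.15, 2.23 and 2.30 in 129Ola. In Hsd17b7 the 129Ola mice lay close together (SD 0.07, n = 4), and near the level of B6 on the probe that stands for the gene. On another probe of Hsd17b7 the 129Ola mice were all below those of B6 (at most 0.41 against at least 0.93). The Hsd17b7 difference was 1.45 ± 0.17 (log2, SE) or 2.72-fold (limma adjusted p = 6.41e-06), and its other probes gave 1.86 and 1.85.

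Ebp encodes the isomerase that shifts the double bond of the ring. It was the exception: its levels were 8.87, 8.93, 8.90 and 8.97 in C3H and 8.70, 8.72, 8.78 and 8.86 in 129Ola. The mice did not overlap, but the difference of 0.15 ± 0.07 (log2, SE; 95% interval 0.01 to 0.30) had a limma adjusted p of 0.0865. Ebp passed the threshold with normexp background correction (0.37), quantile normalization (0.38), the percentile over probes detected on all arrays (0.32) and in the authors' deposited value table (0.36).

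Sc5d and Dhcr7 encode the desaturase and the reductase at the end of the route; loss of the human DHCR7 enzyme causes Smith-Lemli-Opitz syndrome. Sc5d was at 6.61, 6.70, 6.27 and 7.05 in C3H and at 5.54, 5.45, 5.46 and 6.03 in 129Ola, a difference of 1.04 ± 0.18 (log2, SE; limma adjusted p = 0.000337). Dhcr7 was at 2.86, 3.11, 2.53 and 2.88 in C3H and at 0.50, 0.31, 0.77 and 0.99 in 129Ola. No mouse of 129Ola reached a C3H level in either gene. The Dhcr7 difference was 2.20 ± 0.20 (log2, SE), or 4.61-fold, with a limma adjusted p of 1.87e-07.

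The 8 calls held with each of the 20 arrays left out in turn and with the slide as a random block. On the scale of the percentile over detected probes, the median over all genes moved from -0.08 to 0.09 and that of the 9 genes from 1.97 to 2.13. The share of all calls that were higher in C3H moved from 40.5% to 63.8% with that scaling, while 9 of 9 of these genes were then called higher.

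**Figure D2:**
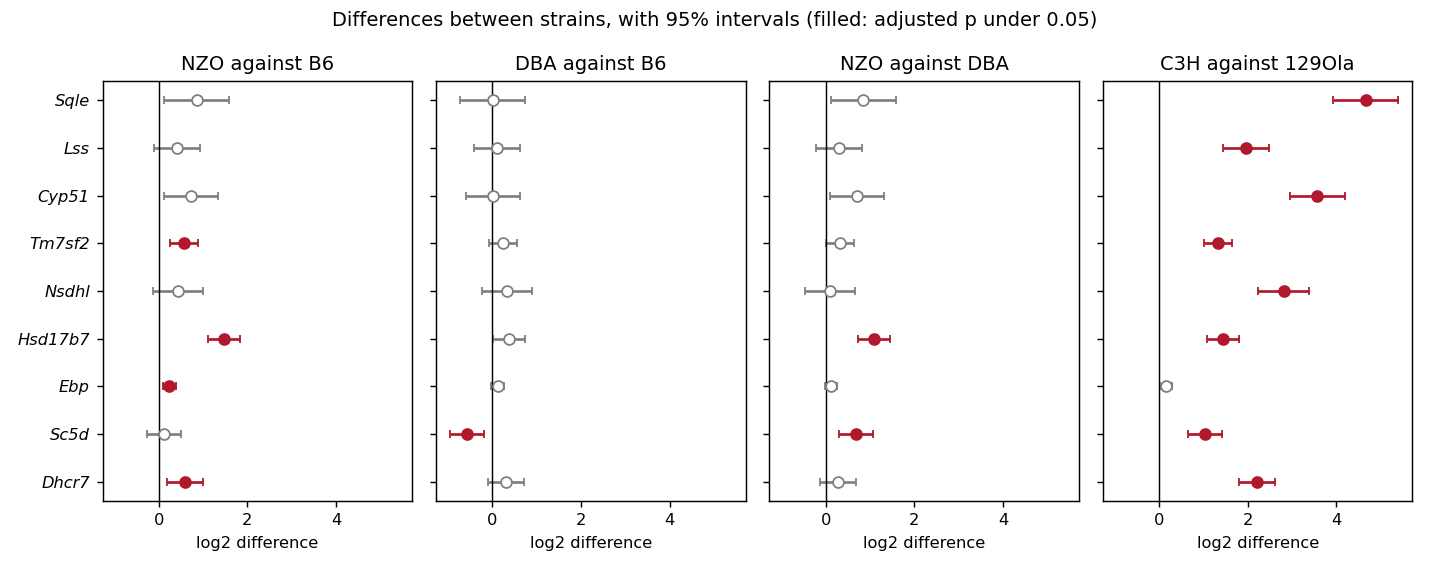
Log2 difference of each enzyme gene, listed in the order of the route, in 4 comparisons, with its 95% interval from limma (n = 4 mice per strain); filled points have an adjusted p under 0.05. All 9 genes lie above 0 in C3H against 129Ola, from 0.15 for Ebp to 4.67 for Sqle, and Hsd17b7 stands at 1.48 in NZO against B6 and 1.09 in NZO against DBA.

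Between obese NZO and lean B6, 4 of the 9 genes were higher in NZO (Tm7sf2, Hsd17b7, Ebp and Dhcr7) and 0 lower, where 9.72% of all genes were higher and 8.57% lower (18.3% either way). The median difference of the 9 was 0.57, against 0.05 over all genes. The mice did not overlap in 3 of 9 genes, as in 22.4% of all genes.

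Hsd17b7 moved most. Its levels were 2.05, 2.39, 1.81 and 2.02 in B6 mice 9, 10, 11 and 15, and 3.69, 3.57, 3.66 and 3.26 in NZO mice 3, 7, 9 and 11. The lowest NZO mouse was above the highest B6 mouse. The difference was 1.48 ± 0.17 (log2, SE), or 2.78-fold, with a limma adjusted p of 5.77e-06. Within scan day 1 (3 NZO and 2 B6 mice) it was 1.33, and within day 2 (1 NZO and 2 B6 mice) 1.64. Over all 32 alternatives it ranged from 1.21 to 1.58 and kept its call.

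The array reads Hsd17b7 with 3 probes, whose positions are given in mouse build mm9 by the array files, all on the minus strand. The probe that stands for the gene is at chr1:171883182-171883241. A probe for the same RefSeq transcript is at chr1:171880203-171880262, and a probe for another, Ensembl transcript is at chr1:171885632-171885691. In NZO against B6 these gave log2 differences of 1.48, 1.12 and 1.13, and each was past the threshold over all 28432 probes tested. In NZO against DBA they gave 1.09, 0.49 and 1.01, and the probe of the second position had an adjusted p of 0.123. Probes were not compared with the strains' genomes, so whether an allele under a probe changes its signal was not tested.

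Tm7sf2 was at 5.92, 5.96, 5.76 and 6.02 in B6 and at 6.57, 6.55, 6.61 and 6.20 in NZO. No B6 mouse reached NZO mouse 11, which lay below the other NZO mice. The difference was 0.57 ± 0.15 (log2, SE), or 1.49-fold, with a limma adjusted p of 0.0125, 0.0806 after quantile normalization and 0.0584 in the authors' deposited value table. It was 0.47 within scan day 1 and 0.71 within day 2, and the gene's other probe gave 0.57.

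Dhcr7 was at 1.87, 2.17, 1.42 and 2.02 in B6 and at 2.52, 2.48, 2.77 and 2.11 in NZO. NZO mouse 11 fell below B6 mouse 10, so the strains overlapped. The difference was 0.60 ± 0.20 (log2, SE; limma adjusted p = 0.0415), with 0.37 within scan day 1 and 0.83 within day 2. Leaving out any of B6 9, B6 11, B6 15, NZO 3, NZO 7, NZO 9, C3H 1 or C3H 5 ended the call, and over all alternatives the adjusted p reached 0.137.

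Ebp was at 8.44, 8.29, 8.35 and 8.40 in B6 and at 8.73, 8.60, 8.55 and 8.56 in NZO. The groups did not overlap, but the step between them was small, 0.24 ± 0.07 (log2, SE; limma adjusted p = 0.0194), and was 0.27 within scan day 1 and 0.20 within day 2. The call was lost without B6 10 (adjusted p 0.0643) or NZO 3 (0.0682), and the difference fell to 0.09 after quantile normalization.

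The 5 other genes did not pass. Sqle was at 3.32, 4.23, 3.82 and 4.58 in B6 and at 4.82, 5.13, 5.25 and 4.18 in NZO, a difference of 0.86 ± 0.35 (log2, SE; limma adjusted p = 0.101). Cyp51 was at 0.64, 1.43, 0.66 and 0.96 in B6 and at 1.79, 1.65, 2.13 and 1.02 in NZO, a difference of 0.73 ± 0.29 (log2, SE; limma adjusted p = 0.0991). In both genes NZO mouse 11 was the lowest of its strain and lay within the range of B6. Without it the differences were 1.08 (adjusted p 0.0497) for Sqle and 0.93 (0.0395) for Cyp51. Lss was at 1.53, 2.08, 1.16 and 1.46 in B6 and at 2.10, 1.80, 2.17 and 1.82 in NZO, and Nsdhl at 1.72, 2.42, 1.47 and 2.19 in B6 and at 2.61, 2.27, 2.76 and 1.90 in NZO, with overlap in both. For Lss, Nsdhl and Sc5d the differences were 0.41, 0.43 and 0.12, with 95% intervals from -0.11 to 0.93, -0.14 to 1.00 and -0.26 to 0.51. The other probe of Nsdhl gave 0.63 ± 0.24 (log2, SE; limma adjusted p = 0.0873 over all probes tested).

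With all scan days in the model as a term, 2 of the 9 genes (Hsd17b7 and Tm7sf2) were called in NZO against B6. After quantile normalization, and in the authors' deposited value table, 1 was called (Hsd17b7). With the slide as a random block 3 were called, Dhcr7 being lost (adjusted p 0.063). With normexp background correction 4 were called, without Ebp (adjusted p 0.159) and with Cyp51 (0.58, adjusted p 0.041). The share of all calls that were higher in NZO was 53.2%, and 38.9% with the percentile over detected probes.

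Lean DBA and lean B6 differed in 1 of the 9 genes, Sc5d, which was lower in DBA; 0 were higher. Over all genes 15.4% were called in this comparison, 7.27% higher and 8.08% lower. The mice did not overlap in 1 of 9 genes, as in 19.7% of all genes, and the median difference of the 9 was 0.12, against 0.01 over all genes. Sc5d was at 6.46, 6.62, 6.30 and 6.34 in B6 and at 5.91, 5.75, 5.55 and 6.22 in DBA mice 5, 9, 8 and 15. DBA mouse 15 came close to the lowest B6 mouse without reaching it. The difference was -0.57 ± 0.18 (log2, SE; limma adjusted p = 0.0409), and -0.73 within scan day 1 and -0.46 within day 2. The call was lost with the slide as a random block (adjusted p 0.12) and without any of B6 9, B6 10, B6 11, B6 15, DBA 5, DBA 8, DBA 9, C3H 1 or C3H 2 (up to 0.138).

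For Sqle and Cyp51 the DBA and B6 means were almost equal, with differences of 0.01 (95% interval -0.73 to 0.74) and 0.02 (-0.60 to 0.64). DBA mice 5, 9, 8 and 15 were at 4.19, 4.19, 3.41 and 4.18 in Sqle and at 0.87, 0.91, 0.59 and 1.40 in Cyp51. Hsd17b7 was at 2.32, 2.47, 2.23 and 2.80 in DBA, 0.39 above B6 (95% interval 0.03 to 0.75; limma adjusted p = 0.158). The remaining genes had small positive differences that did not pass. Nsdhl was at 2.56, 2.29, 1.75 and 2.53 in DBA (0.33 above B6, interval -0.24 to 0.90) and Dhcr7 at 2.40, 2.06, 1.85 and 2.45 (0.32, interval -0.10 to 0.73). Lss, Tm7sf2 and Ebp were 0.11, 0.25 and 0.12 above B6. DBA mouse 8 was the lowest of its strain in Sqle, Lss, Cyp51, Nsdhl, Hsd17b7, Ebp, Sc5d and Dhcr7.

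NZO and DBA, both susceptible strains, differed in 2 of the 9 genes, Hsd17b7 and Sc5d, both higher in NZO and neither with overlapping mice. Over all genes 18.0% were called (9.77% higher, 8.27% lower), and the mice did not overlap in 4129 of 20624. The median difference of the 9 was 0.32, against 0.04 over all genes. Sqle (0.85 ± 0.35, log2, SE) and Cyp51 (0.71 ± 0.29) did not pass, with limma adjusted p-values of 0.107 and 0.111; without NZO mouse 11, Cyp51 did (0.92, adjusted p 0.0436). The comparison shares its NZO and DBA mice with those against B6. The Hsd17b7 difference was 1.09 ± 0.17 (log2, SE), or 2.13-fold (limma adjusted p = 0.000139), with 1.06 within scan day 1 and 1.25 within day 2. NZO mice 3, 7, 9 and 11 were at 6.51, 6.49, 6.91 and 6.30 in Sc5d, all above every DBA mouse. The Sc5d difference was 0.69 ± 0.18 (log2, SE; limma adjusted p = 0.0117), with 0.82 within scan day 1 and 0.58 within day 2, and an adjusted p of 0.0725 with scan day as a term.

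For susceptible against resistant strains, the mean of 2 differences was tested, each taken within a set of arrays. They were the mean of NZO and DBA minus B6, and C3H minus 129Ola. C3H thus weighed as much as NZO and DBA together. By this contrast 9 of 9 genes were higher in the susceptible strains, where 12.2% of all genes were higher and 17.4% lower (29.6% either way). These p-values rest on the spread between mice, while the class has 3 strains against 2, and the comparison contains the mice of all those above. The median difference was 1.19, against -0.02 over all genes, and ran from 0.17 for Ebp to 2.55 for Sqle. Ebp and Sc5d lost the call with the slide as a random block (adjusted p 0.0544 and 0.139). The class difference was not of one size in both sets of arrays. For 7 of 9 genes the difference of C3H from 129Ola exceeded that of the mean of NZO and DBA from B6 by a limma test of the difference itself, where 31.3% of all genes passed. For Sqle they were 4.67 and 0.43, and for Dhcr7 2.20 and 0.46. For Sc5d they were 1.04 and -0.22, so the mean of NZO and DBA was below B6 in this gene. The place of Sc5d among the 9 thus rests on C3H against 129Ola. For Hsd17b7 the differences were 1.45 and 0.93 (adjusted p of their difference 0.0952), and for Ebp 0.15 and 0.18 (0.845). The mean of NZO and DBA minus B6 was not tested by itself. Sqle, Lss, Cyp51 and Nsdhl did not pass in NZO against B6 (limma adjusted p 0.101, 0.285, 0.0991 and 0.309). Tm7sf2, Hsd17b7, Ebp and Dhcr7 passed there. None of the 9 genes was higher in DBA than in B6. Between single strains, Sqle, Lss, Cyp51 and Nsdhl thus passed only in C3H against 129Ola. The Hsd17b7 values are of the probe that stands for the gene, and its other probes were not put to this test.

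Within a strain, mice that were high in one of these genes tended to be high in the others. Each level was set against the mean of its strain, so that strain, set and, for C3H and 129Ola, scan day drop out, and the 36 pairs of genes were correlated over the 20 mice. Pearson's r was positive in 36 of 36 pairs, with a median of 0.665; leaving out the 2 mice farthest from the median of one gene gave a median of 0.585. Between these 9 genes and each other tested gene the median r was -0.029. By permutation of mice within strains, 24 of 36 pairs had an adjusted p under 0.05, by Pearson's r and by Spearman's rho alike. Pairs of other genes were not counted in this way. No share over all genes therefore stands beside the counts of positive pairs and of pairs that passed. All points of a correlation share the array and its scaling.

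The tightest pair was Nsdhl and Dhcr7, with r = 0.944 and rho = 0.955 over 20 mice (permutation p = 1e-05 for both, the smallest that 100000 permutations give; adjusted over the 36 pairs 0.00036 and 0.00018), and r = 0.932 without the 2 mice farthest from the median. Lss and Dhcr7 followed with r = 0.889, and Sqle and Nsdhl with 0.863. Nsdhl, Dhcr7 and Sqle were each in 7 pairs past the threshold, Cyp51, Hsd17b7, Lss and Sc5d in 6, Tm7sf2 in 3 and Ebp in 0. The r of Ebp with the other genes ran from 0.218 to 0.394.

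In each strain 1 mouse was low across the route. B6 mouse 11, NZO mouse 11 and 129Ola mouse 5 were above their strain mean in 0 of 9 genes, and C3H mouse 3 and DBA mouse 8 in 1 of 9. Their mean deviations over the 9 genes were -0.26, -0.35, -0.41, -0.33 and -0.30. At the other end, 129Ola mouse 9 and C3H mouse 2 were above it in 9 of 9, with mean deviations of 0.41 and 0.19. Scan day moved with this in B6, where mice 10 and 15 of day 1 had mean deviations of 0.28 and 0.10 and mice 9 and 11 of day 2 had -0.12 and -0.26. With deviations taken within strain and scan day (17 mice), 36 of 36 pairs were positive, the median r was 0.686 and 20 pairs passed.

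**Figure D3:**
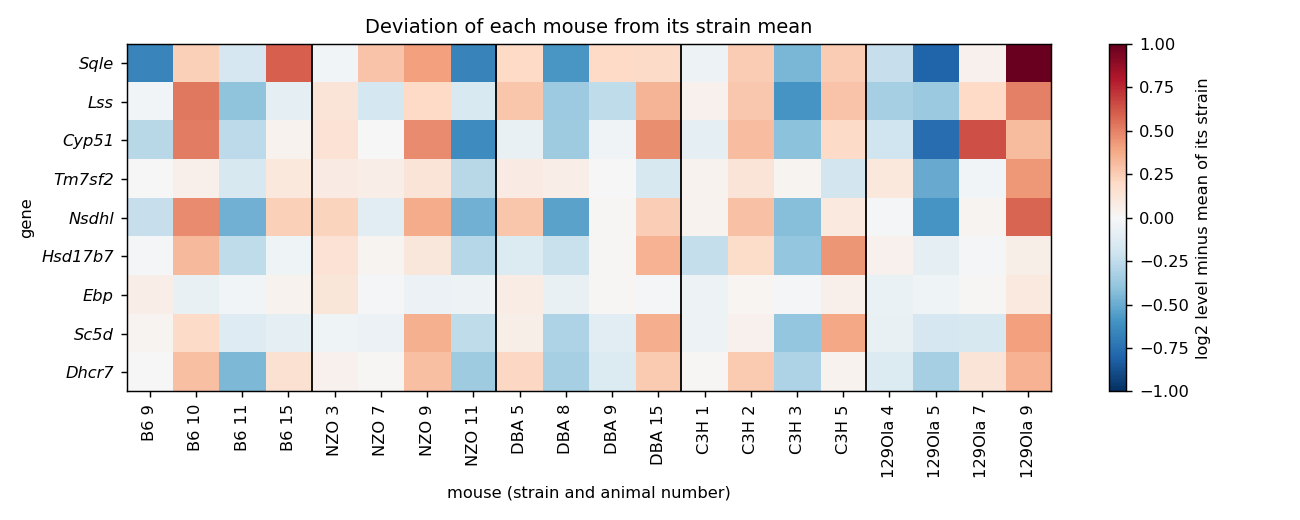
Deviation of each of the 20 mice (columns, by strain) from the mean of its strain in each enzyme gene (rows, in the order of the route), as a difference of log2 levels; red is above and blue below the strain mean, and colours stop at 1 in either direction. Columns such as NZO 11 and 129Ola 5 are blue in 9 of 9 rows, 129Ola 9 is red in 9 of 9, and the row of Ebp is pale.

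Outside the 9 genes, the 10 named features whose pattern was most like their standardised mean were ranked by the lower of 2 Pearson correlations, over the 12 arrays of B6, NZO and DBA and over the 8 of C3H and 129Ola, among 20615 others. Among them were Rdh11 (lower r 0.964), Mvd (0.929), Mvk (0.927), Fdft1 (0.920), Mmab (0.919), Fdps (0.912) and 3 probes without a gene symbol in the files. Rdh11 encodes a retinol dehydrogenase, and Mvd, Mvk, Fdft1 and Fdps enzymes that make squalene. Mmab encodes an enzyme of cobalamin metabolism. The 8 arrays fall into 2 strains far apart in these genes, so the second correlation mostly follows the strain difference.

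Of 2 other genes of the same route, both were higher in C3H than in 129Ola, where 15.4% of all genes were higher. Msmo1, the sterol methyl oxidase that works with Nsdhl, was higher in C3H by 2.74 ± 0.19 (log2, SE), and Lbr, a nuclear envelope protein with the same reductase activity as Tm7sf2, by 0.64 ± 0.13. In NZO against B6, Msmo1 (0.66) was higher and Lbr was lower (-0.57), where 9.72% of all genes were higher and 8.57% lower. Tm7sf2 and Lbr thus differed in opposite directions between NZO and B6 and in the same direction between C3H and 129Ola.

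Of the 9 enzymes that lead from acetyl-CoA to squalene, 8 were higher in C3H than in 129Ola and 0 lower, where 15.4% of all genes were higher, with a median difference of 2.20. Those with the largest differences were Mvd (3.49), Fdps (3.02), Hmgcs1 (2.70) and Idi1 (2.62), and Acat2, which catalyses the first condensation, did not pass (-0.06). In NZO against B6, 5 of 9 were higher and 0 lower, where 9.72% of all genes were higher, with a median of 0.54; Mvd (1.17), Fdps (0.97), Acat2 (0.79) and Fdft1 (0.70) had the largest differences. In DBA against B6, 1 was higher (Acat2, 0.35) and 1 lower (Hmgcs1, -0.75), and in NZO against DBA 1 was higher (Acat2, 0.44). These counts are near the shares of all genes called, 15.4% and 18.0%.

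Of 12 genes of sterol sensing and uptake, 5 were higher and 2 lower in C3H than in 129Ola, with a median of 0.34, where 37.9% of all genes were called. Insig1 (1.33), which retains SREBP in the endoplasmic reticulum, and Srebf2 (1.05), which encodes SREBP-2, had the largest differences, followed by Srebf1 and Npc1 (both 0.71 in size, Npc1 lower). In NZO against B6, 1 was higher (Stard4, 0.63) and 2 were lower (Srebf1, -0.77, and Mylip, -0.59), 3 of 12 beside 18.3% of all genes. Of 9 genes of liver X receptors and bile acid synthesis, 0 were higher and 3 lower in C3H. These were Abcg8 (-1.85), Abcg5 (-1.57) and Nr1h2 (-0.38). Of all genes, 22.6% were lower, and 37.9% were called either way, which is above the share of calls in this list. Abcg5 and Abcg8 form the transporter that moves sterols into bile.

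Of 10 genes of fatty acid synthesis, 9 were higher and 0 lower in C3H than in 129Ola, where 15.4% of all genes were higher, with a median of 1.99. Acacb (2.98), Scd1 (2.81), Pnpla3 (2.65) and Fasn (2.20) had the largest differences. In NZO against B6, 2 were higher (Pnpla3, 2.77, and Me1, 1.03) and 0 lower, with a median of 0.55 over the list. That share of calls is near the 18.3% of all genes called either way, of which 9.72% of all genes were higher.

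**Figure D4:**
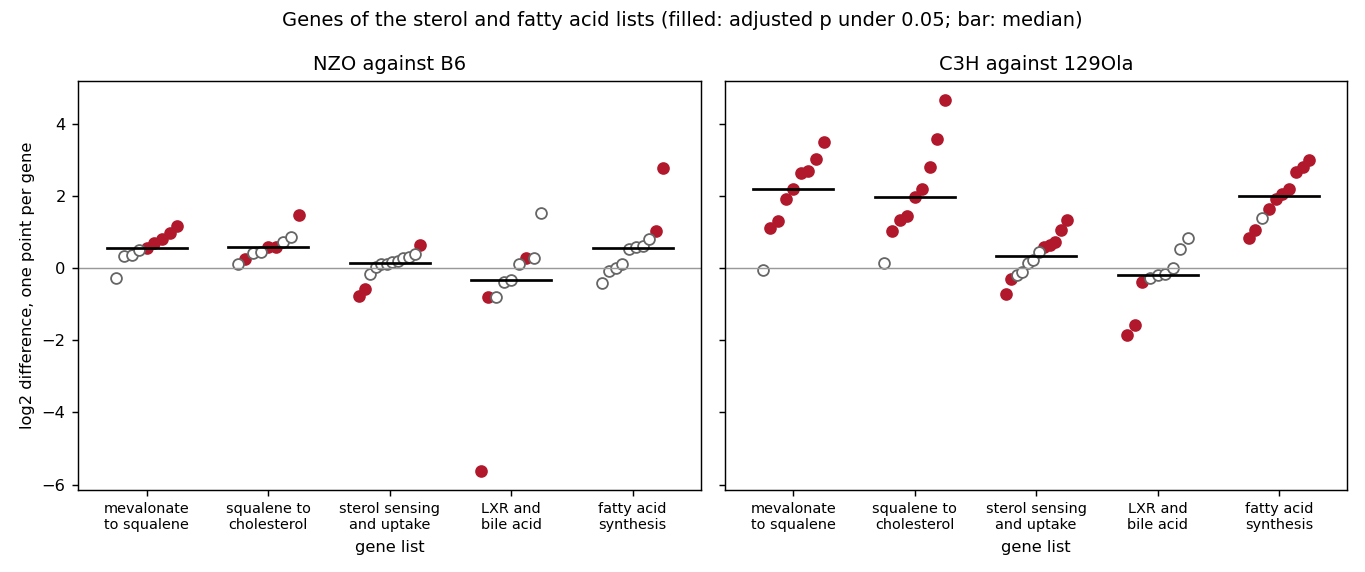
Log2 differences of the genes of 5 lists (1 point per gene) in NZO against B6 and in C3H against 129Ola; filled points have a limma adjusted p under 0.05 and bars are list medians. In C3H against 129Ola the medians of the mevalonate, squalene-to-cholesterol and fatty acid lists are 2.20, 1.97 and 1.99, and in NZO against B6 they are 0.54, 0.57 and 0.55.

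RefSeq promoter sequences (GRCm38.p6) were given for 8 of the 9 genes, as 10 promoters, since Dhcr7 has 3. The 250 bases before each start are shown for 5 of them: Cyp51 and Hsd17b7, which had the largest difference with a promoter sequence here and the largest in NZO, Nsdhl and Dhcr7, which followed each other most closely, and Ebp, which differed least between C3H and 129Ola. For Dhcr7 the start shown is the only one of its 3 with CCAAT. Capitals mark matches, on either strand, to CCAAT, the element bound by NF-Y, and to TCACNNCA, a loose form of the sterol response element that SREBP binds.
Cyp51 promoter, chr5:4104698-4104947, minus strand: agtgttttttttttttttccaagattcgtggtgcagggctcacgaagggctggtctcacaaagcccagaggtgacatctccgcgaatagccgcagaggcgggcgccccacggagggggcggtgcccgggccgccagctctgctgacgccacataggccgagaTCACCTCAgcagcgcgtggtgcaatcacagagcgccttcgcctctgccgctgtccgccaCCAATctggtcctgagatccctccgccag
Hsd17b7 promoter, chr1:169969206-169969455, minus strand: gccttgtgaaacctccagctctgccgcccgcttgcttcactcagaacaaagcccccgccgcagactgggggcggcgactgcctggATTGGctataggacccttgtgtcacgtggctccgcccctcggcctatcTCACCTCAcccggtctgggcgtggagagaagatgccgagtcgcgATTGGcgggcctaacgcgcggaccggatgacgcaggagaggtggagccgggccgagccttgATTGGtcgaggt
Nsdhl promoter, chrX:72918271-72918520, plus strand: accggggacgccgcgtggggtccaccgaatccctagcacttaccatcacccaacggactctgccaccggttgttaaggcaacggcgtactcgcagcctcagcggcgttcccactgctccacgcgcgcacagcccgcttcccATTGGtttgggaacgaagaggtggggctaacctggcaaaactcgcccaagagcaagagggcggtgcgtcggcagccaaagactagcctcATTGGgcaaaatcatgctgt
Dhcr7 promoter, chr7:143829964-143830213, plus strand: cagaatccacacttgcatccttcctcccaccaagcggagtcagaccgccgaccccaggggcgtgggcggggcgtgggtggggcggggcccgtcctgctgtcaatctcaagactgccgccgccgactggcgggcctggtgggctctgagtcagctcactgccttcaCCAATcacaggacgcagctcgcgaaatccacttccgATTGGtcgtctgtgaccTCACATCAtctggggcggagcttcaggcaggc
Ebp promoter, chrX:8193513-8193762, minus strand: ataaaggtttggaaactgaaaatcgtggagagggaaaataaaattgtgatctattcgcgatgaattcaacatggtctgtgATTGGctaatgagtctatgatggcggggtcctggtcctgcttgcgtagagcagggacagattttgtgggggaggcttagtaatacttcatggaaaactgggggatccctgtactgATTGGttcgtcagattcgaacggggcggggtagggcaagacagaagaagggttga

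CCAAT was in 8 of the 10 promoters, against 33.8% of 32851 RefSeq promoters of the same length, and GGGCGG, the GC box of Sp1, in 9 of 10 against 32.7%. TCACNNCA was in 5 of 10 against 11.4%, the stricter TCACNCCAC in 0 of 10 against 1.05%, and CACGTG, the E-box, in 3 of 10 against 6.02%. Dhcr7 enters these counts with 3 promoters, and the windows of 2 of them overlap. By gene, CCAAT and GGGCGG were each in 8 of 8, TCACNNCA in 4 of 8 and CACGTG in 3 of 8. The shares over all RefSeq promoters are per promoter. Cyp51 and Hsd17b7 share the letters TCACCTCA, 88 to 81 and 117 to 110 bases before their starts, and Hsd17b7 has CCAAT 3 times. Nsdhl and Ebp each have CCAAT 2 times and no match to TCACNNCA in this window, and matches to different motifs did not overlap. A match is a stretch of letters and not a measured site of binding, and no binding was measured here.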

How the data were processed

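The deposited intensity values are, per the file headers, processed signals of Agilent Feature Extraction 11.0.1.1 (B6, NZO, DBA) and 11.5.1.1 (C3H, 129Ola), background-subtracted and spatially detrended, with low values replaced by a surrogate; version 9.1 is named instead in the submitters' processing notes. The authors' value table is on a linear intensity scale, with the same sorted values in each array and a background step not given in the sources used here; it served as an alternative.

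Controls and outlier spots were left out, spots of a probe averaged, log2 taken and each array's 75th percentile subtracted. A probe entered the tests when well above background on all 4 arrays of a strain, and the brightest probe stood for a gene. The limma package (3.58.1, R 4.3.3) fitted strain means over 20 arrays, with Benjamini-Hochberg adjustment over 20624 genes and a threshold of 0.05. The procedure was tested on simulated data. The labels give an animal number per array, read as 1 mouse each; whether litters or cages were shared is not stated. Within a strain, arrays correlated at 0.972 to 0.993 over genes, and none was a copy. Of the genes first listed around the route, 2 are not reported here and enter no count of a list. Members, lists and motifs were chosen with earlier results of these data known. Of each other list, at most the 4 genes with the largest differences past the threshold are named. Acat2 in C3H against 129Ola was named after its value was seen. Precision is limited by the number of arrays and by background. Alternatives were other background corrections, scalings and filters, slide, scan day and animal number in the model, the value table, and each array left out.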

Additional observations from a re-analysis of the deposited data

Results flagged for a closer look

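Among 45 sets of 4 mice (9 genes in 5 strains), 3 had 1 mouse standing apart from the other 3 by Dixon's criterion, which chance alone gives in about 1 in 20 sets. Sqle in DBA mouse 8 was at 3.41, below its nearest strain mate at 4.18. Tm7sf2 in NZO mouse 11 was at 6.20, below 6.55. Sc5d in 129Ola mouse 9 was at 6.03, above 5.54.

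The difference between susceptible and resistant strains was not the same in the 2 sets of arrays for 7 of the 9 genes, by a limma test of the difference itself. The same test was passed by 31.3% of all genes. C3H minus 129Ola was subtracted from the mean of NZO and DBA minus B6, on the log2 scale. This gave -4.23 for Sqle, -3.20 for Cyp51, -2.43 for Nsdhl and -1.75 for Dhcr7. It gave -1.70 for Lss, -1.26 for Sc5d and -0.91 for Tm7sf2. C3H minus 129Ola was thus the larger in each of these genes. Strain, software version, scan day and slide cannot be told apart in this comparison.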

How the results depend on the processing

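Counts are of the 9 genes called. C3H against 129Ola stayed at 7 to 9 and susceptible against resistant at 7 to 9 under all alternatives; Cyp51 was not tested when all arrays had to be well above background. In NZO against B6 the 4 calls became 1 with quantile normalization and in the authors' value table, and 2 with the percentile over detected probes, no filter on dim probes, scan day as a term, only arrays of the same extraction protocol, or (chosen after seeing the data) only scan days 1 and 2. They became 3 with the slide as a block, and stayed 4 with normexp, with Cyp51 in place of Ebp. Leaving out 1 array gave 2 to 6 calls there, 0 to 1 in DBA against B6, 2 to 3 in NZO against DBA, 8 in C3H against 129Ola and 9 between the classes. The 1 call in DBA against B6 became 0 with no filter, the slide as a block, scan day as a term or scan days 1 and 2 only, and the 2 calls in NZO against DBA became 1 with scan day as a term. Pairs that varied together numbered 20 to 25 of 36 by Pearson's r and 20 to 26 by Spearman's rho, and 20 to 24 and 18 to 24 with each strain left out. The cause of these changes was not tested. The animal number as a replicate block gave 4, 1, 2, 8 and 9 calls; animals of the same number did not vary together (median r -0.021 over 13 pairs, 2 of them over 0.1), so the numbers were not taken as pairs.

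Of 24 differences past the threshold, 0 changed direction under any alternative and 17 kept their call under all. Small differences that did not pass changed sign as follows. Sc5d in NZO against B6 became -0.013 with quantile normalization and -0.012 in the value table. In DBA against B6, Ebp became -0.033 and -0.043 and Sqle -0.032 and -0.032 under the same alternatives, Sqle -0.047 and Cyp51 -0.035 with the percentile over detected probes, and Cyp51 -0.036 with scan day as a term and with scan days 1 and 2 only. Nsdhl in NZO against DBA became -0.011 with the slide as a block, -0.12 with scan day as a term and -0.042 with scan days 1 and 2 only. With 1 array left out, these ran from -0.21 to 0.20 (Sqle), -0.14 to 0.19 (Cyp51), -0.020 to 0.29 (Lss) and -0.077 to 0.26 (Nsdhl). A fit with scan day as a term was not possible for C3H against 129Ola or the classes.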
